A study of Mus musculus with 6 samples.

Results

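The AP-1 and Egr immediate early factors are *Fos*, *Fosb*, *Fosl1*, *Fosl2*, *Jun*, *Junb*, *Jund*, *Egr1*, *Egr2* and *Atf3*, 10 genes taken by symbol as all of their single-gene probe sets in the array annotation. They have 15 of the 45141 probe sets of the array and are 10 of the 17097 genes that have a single-gene probe set, and *Fosl1*, *Fosl2*, *Jun*, *Jund* and *Egr2* have 2 probe sets each. RNA came from cancer cells sorted as α6-integrin+CD45-EpCAM+ out of mouse cutaneous squamous cell carcinomas, and 1 array was hybridized per tumor. Full epithelial cancer cells were sorted from 3 well differentiated tumors (WD-SCCs). EpCAM+ plastic cancer cells were sorted from 3 moderately to poorly differentiated tumors (MD/PD-SCCs), and the question of the comparison is which genes mark epithelial cancer cells that can turn mesenchymal. In both groups the tumors were digested overnight with collagenase and dispase and cleared of red blood cells and CD31+ endothelial cells before sorting, and the labels name no treatment of either group. The cancer cells of this model go back to K14-HPV16 transgenic mice, in which a basal keratinocyte promoter drives the viral oncogenes. Their founding tumors were either spontaneous or induced with the carcinogen DMBA and the phorbol ester TPA. Tumors were grown in the back skin of young adult male mice, and the methods describe serial transplantation of WD-SCCs of the OT14 lineage in nude mice. Which lineage, founding tumor and host strain each of the 6 array tumors had is not given in the labels.

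AP-1 is a dimer of basic leucine zipper proteins. Jun proteins pair with each other or with Fos proteins, which cannot pair among themselves, and Atf3 joins the same network through its own zipper. The dimers bind the element TGANTCA, in which N is any base, and related sites. Egr proteins are zinc finger factors that bind GC-rich elements. Growth factors, through ERK kinases and the serum response factor SRF, and cell stress induce many of these genes within minutes without new protein synthesis, which gave the class its name. Enzymatic dissociation of tissue is known to induce them too. In epidermis, AP-1 takes part in proliferation, wound repair, terminal differentiation and tumor promotion by phorbol ester.

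*Egr2* rose in EpCAM+ plastic cancer cells to 4.38-fold its full epithelial level and *Jun* fell by 0.81 on the log2 scale, which is 1.75-fold lower. *Egr1* and *Fosl1* were higher in every EpCAM+ plastic array than in any full epithelial array, but they did not pass the test. *Fos*, *Fosb*, *Fosl2*, *Junb*, *Jund* and *Atf3* did not pass either, and their groups overlapped. The deposited log2 values of all 45141 probe sets were fitted with limma, EpCAM+ plastic against full epithelial, and a probe set rose or fell where its Benjamini-Hochberg adjusted p was under 0.05. A gene with 2 probe sets is represented by the brighter, which has the higher mean over the 6 arrays. By this rule 1 of 10 genes rose, beside 5.3% of all genes, and 1 of 10 fell, beside 1.91%. All 15 probe sets had a mean above 5.71, the 90th percentile of the 23 background probe sets of the array, and among the 7798 genes above that bound 10.1% rose and 3.39% fell. The median log2 fold change was −0.11 over the 10 members and 0.09 over those 7798 genes.

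Counted by probe set, 2 of 15 rose, beside 4.11% of all probe sets, and 1 of 15 fell, beside 1.87%. Where a log2 difference of 1 or more was required in addition, 2 of the 15 were higher, beside 1.58% of all probe sets, and both belong to *Egr2*. For 5 of 15 the EpCAM+ plastic values all lay above the full epithelial values, beside 13.5% of all probe sets. For 2 of 15 they all lay below, beside 13.2%. By gene, 3 of the 10 members lay all above and 1 all below, beside 2053 and 1019 of the 7798 genes above the bound. With so few members these shares carry little precision.

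**Figure D1:**
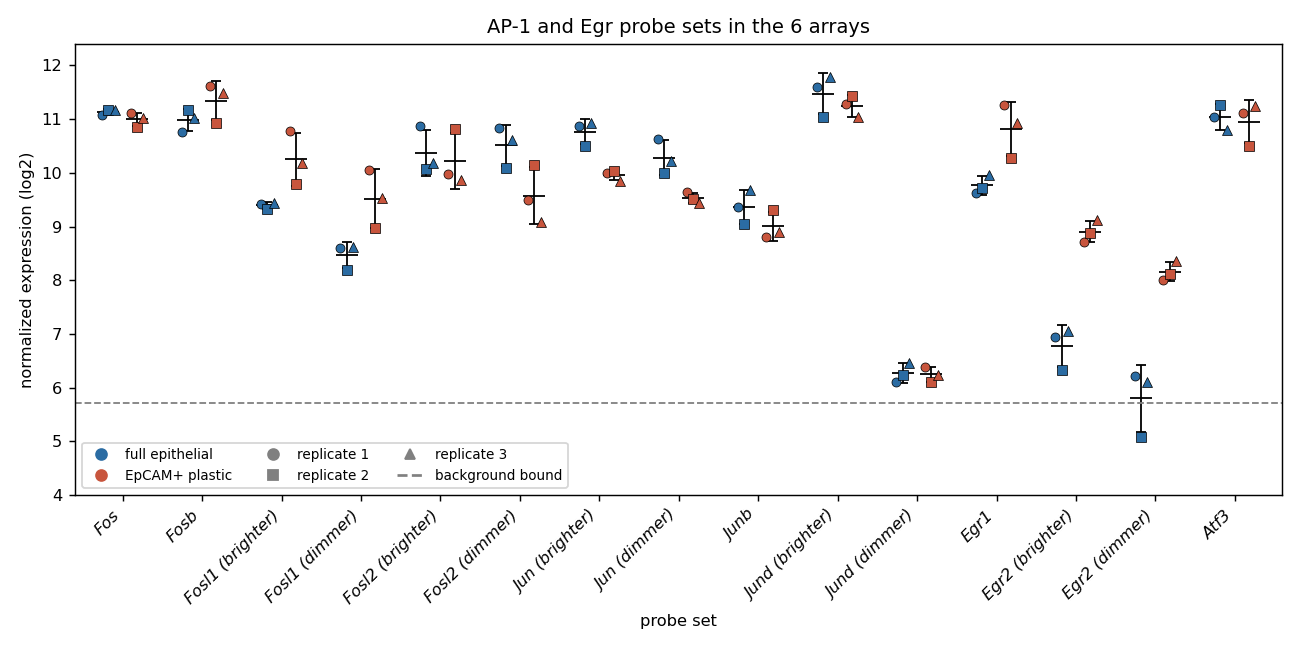
Normalized log2 value of the 15 member probe sets (x axis) in each of the 6 arrays, with the full epithelial arrays in blue and the EpCAM+ plastic arrays in red. Marker shapes give the replicate, black bars the group mean and SD (n = 3), and the dashed line the background bound of 5.71. The groups are apart for both *Egr2*, both *Jun* and both *Fosl1* probe sets and for *Egr1*. Heights of different probe sets are not comparable with each other.

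*Egr2*, which is known for its roles in hindbrain patterning, myelination and lymphocyte tolerance, had normalized log2 values of 6.95, 6.33 and 7.05 in full epithelial replicates 1, 2 and 3. In the EpCAM+ plastic replicates it had 8.72, 8.89 and 9.11. The lowest EpCAM+ plastic value thus lay far above the highest full epithelial value. This amounted to a log2 fold change of 2.13 (standard error, SE, 0.21, 95% confidence interval 1.64 to 2.63, adjusted p = 0.00740). Its dimmer probe set gave 6.22, 5.09 and 6.10 in full epithelial and 8.0, 8.12 and 8.36 in EpCAM+ plastic cancer cells. The dimmer probe set therefore separated the groups as well, with a log2 fold change of 2.36 (SE 0.30, adjusted p = 0.0116). Full epithelial replicate 2 was below the background bound on it, so this fold can be understated. The 2 probe sets are annotated to the same transcript record and are not independent readings of the change.

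The promoters of the genes that passed the test are shown for the elements they carry, as the 100 bases before a RefSeq start site (GRCm38.p6). Promoters were searched on both strands over 250 bases before each start site. Of the 10 members, *Egr1* and *Fosl1* have no entry in the promoter table and were not searched. The other 8 have 12 start sites in it. *Egr2* has 5 of these start sites, and 4 of them have a match to the CArG box, the element that SRF binds, which occurs in 1.47% of the 32851 promoters of the table. Of these 4 windows 3 overlap and share 1 box, so that there are 2 different boxes. Both are given here, in capitals, on the plus strand, at chr10:67537466-67537565 for the first and chr10:67537769-67537868 for the second.
Egr2, first box: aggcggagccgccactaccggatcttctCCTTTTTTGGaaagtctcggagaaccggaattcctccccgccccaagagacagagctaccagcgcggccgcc
Egr2, second box: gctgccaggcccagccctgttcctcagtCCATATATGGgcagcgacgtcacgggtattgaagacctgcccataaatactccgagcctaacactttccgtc
Each box spans positions −72 to −63 relative to its start site. The other members with a promoter in the table had no CArG box in these windows, which says only that these letters are not there.

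*Egr1*, the best known growth factor response gene of the family, had normalized log2 values of 9.62, 9.71 and 9.97 in full epithelial replicates 1, 2 and 3. The EpCAM+ plastic replicates had 11.26, 10.28 and 10.93. The groups did not overlap, and EpCAM+ plastic replicate 2 stood nearest to the full epithelial arrays. Their log2 difference of 1.05 (SE 0.25, 95% confidence interval 0.47 to 1.64) missed the threshold narrowly, at an adjusted p of 0.0585 from limma. It passed in 3 of 12 alternative analyses, among them the one without EpCAM+ plastic replicate 2, where the log2 fold change was 1.33 (adjusted p = 0.0152). Leaving out the EpCAM+ plastic array nearest to the other group raises the difference by itself. With any other array left out the adjusted p from limma was 0.105 to 0.163.

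Among the Fos proteins, Fosl1, also known as Fra-1, lacks the strong activation domain of Fos and is linked to invasion and mesenchymal traits in many carcinomas. Its brighter probe set had normalized log2 values of 9.42, 9.32 and 9.44 in the full epithelial arrays and of 10.78, 9.79 and 10.18 in EpCAM+ plastic replicates 1, 2 and 3. All EpCAM+ plastic values were higher, and they were spread more widely, with an SD of 0.50 against 0.07 (n = 3 each). *Fosl1* thus had a log2 fold change of 0.86 (SE 0.24, 95% confidence interval 0.30 to 1.42, adjusted p = 0.0901). The dimmer probe set had 1.05 (SE 0.28, adjusted p = 0.0803). Without EpCAM+ plastic replicate 2, the lowest of its group, the brighter one passed, with 1.09 (adjusted p = 0.0310). With any other array left out its adjusted p from limma was 0.124 to 0.190.

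*Fosl2*, which encodes the related Fra-2, gave different readings on its 2 probe sets. The brighter had normalized log2 values of 10.87, 10.08 and 10.18 in full epithelial and 9.97, 10.81 and 9.86 in EpCAM+ plastic replicates 1, 2 and 3. The groups overlapped, with the highest value of each group far from its other 2. This probe set had a log2 fold change of −0.16 (95% confidence interval −0.90 to 0.57, adjusted p = 0.815). The dimmer had a larger one, −0.93 (SE 0.30, 95% confidence interval −1.64 to −0.22, adjusted p = 0.131). There too EpCAM+ plastic replicate 2, at 10.14, was the one that reached into the full epithelial range of 10.09 to 10.84. Without that array the dimmer probe set passed limma's test, while the brighter did not (−0.46, adjusted p = 0.370). With any other array left out the dimmer did not pass.

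*Fos*, the founding member and a classical marker of acute induction, was nearly level, with normalized log2 values of 11.07, 11.18 and 11.16 in full epithelial and 11.11, 10.86 and 11.02 in EpCAM+ plastic cancer cells. Its log2 fold change was −0.14, and the 95% confidence interval of −0.37 to 0.09 was the narrowest of the 15 probe sets. *Fosb*, which is induced by much the same signals, had 10.76, 11.17 and 11.02 in full epithelial and 11.61, 10.93 and 11.49 in EpCAM+ plastic replicates 1, 2 and 3. The arrays of EpCAM+ plastic replicates 1 and 3 lay above the full epithelial range and replicate 2 lay inside it. For *Fosb* the log2 fold change was 0.36 (95% confidence interval −0.12 to 0.84, adjusted p = 0.370).

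Among the Jun proteins, Jun is the strongest activator and a driver of keratinocyte proliferation. *Jun* had normalized log2 values of 10.88, 10.50 and 10.93 in full epithelial and 9.99, 10.04 and 9.86 in EpCAM+ plastic replicates 1, 2 and 3. All EpCAM+ plastic values were lower, and they lay close together, with an SD of 0.10 against 0.23 (n = 3 each). *Jun* fell with a log2 fold change of −0.81 (SE 0.14, 95% confidence interval −1.13 to −0.48, adjusted p = 0.0240). The dimmer probe set also had no overlap and just missed the threshold, at −0.75 (SE 0.17, adjusted p = 0.0527). The call of *Jun* was lost with any of 4 arrays left out. The adjusted p was then 0.0768 (full epithelial replicate 1 left out), 0.0659 (full epithelial replicate 3), 0.0838 (EpCAM+ plastic replicate 1) and 0.0819 (EpCAM+ plastic replicate 3).

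The *Jun* promoter is shown for TGACATCA, the element through which Jun and Atf proteins are known to act on this gene. It matched at positions −45 to −38 relative to the RefSeq start site and is found in 2.93% of all promoters of the table. The 100 bases before the start site lie at chr4:95052223-95052322 (GRCm38.p6), and are given on the minus strand with the element in capitals.
Jun: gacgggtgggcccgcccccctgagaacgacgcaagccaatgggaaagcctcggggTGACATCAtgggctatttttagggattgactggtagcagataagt
The consensus AP-1 element TGANTCA, found in 6.75% of promoters, and the cyclic AMP element TGACGTCA, found in 1.55%, had no match in the 250 bases before the start sites of the 8 members. The Egr element GCGNGGGCG, found in 4.70%, matched in *Fosb* and *Fosl2*. A match describes the sequence and does not show binding.

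*Junb*, which restrains proliferation and counteracts Jun in many settings, had normalized log2 values of 9.36, 9.04 and 9.68 in full epithelial and 8.80, 9.32 and 8.90 in EpCAM+ plastic replicates 1, 2 and 3. EpCAM+ plastic replicate 2 lay within the full epithelial range and the other 2 below it. Its log2 fold change was −0.36 (95% confidence interval −0.84 to 0.12, adjusted p = 0.374). *Jund*, the member of the family that cells express most steadily, had 11.60, 11.04 and 11.78 in full epithelial and 11.28, 11.43 and 11.03 in EpCAM+ plastic cancer cells. These ranges overlapped, with a log2 fold change of −0.23 (95% confidence interval −0.72 to 0.27, adjusted p = 0.600) and one of −0.02 on the dimmer probe set. *Atf3*, a stress-induced factor that often represses its targets, had 11.05, 11.27 and 10.80 in full epithelial and 11.12, 10.49 and 11.25 in EpCAM+ plastic cancer cells. Its log2 fold change was −0.09 (95% confidence interval −0.61 to 0.44, adjusted p = 0.868).

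**Figure D2:**
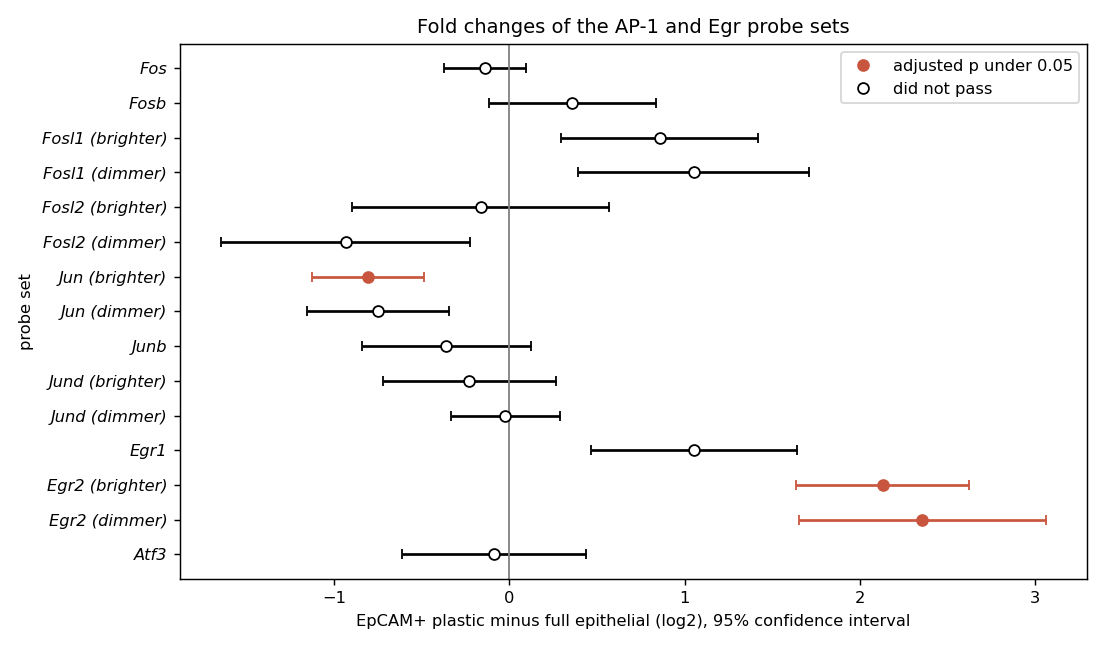
Log2 fold change (x axis, EpCAM+ plastic minus full epithelial) of each of the 15 member probe sets (y axis) with its 95% confidence interval from limma, n = 3 arrays per group. Filled red points passed at an adjusted p under 0.05. Both *Egr2* probe sets lie near 2 and the brighter *Jun* probe set is at −0.81, while the intervals of *Egr1* and *Fosl1* also lie above 0 without passing over all probe sets.

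The 3 EpCAM+ plastic tumors differed among themselves in these genes. EpCAM+ plastic replicate 2 had the lowest value of its group for *Fos*, *Fosb*, *Fosl1*, *Egr1* and *Atf3*, 5 of the 10 genes, and the highest for *Fosl2*, *Jun*, *Junb* and *Jund*, 4 of the 10. *Egr2* was the exception, with replicate 2 between the others. As log2 differences from the full epithelial mean, *Egr1* had 1.49, 0.51 and 1.16 in EpCAM+ plastic replicates 1, 2 and 3. *Fosl1* was also lowest in replicate 2, with 1.39, 0.40 and 0.79. *Fosl2* was highest there, with −0.41, 0.43 and −0.52. Without EpCAM+ plastic replicate 2, 4 of the 10 genes passed, namely *Egr2*, *Jun*, *Egr1* and *Fosl1*. The member probe sets that passed then numbered 7 of 15 instead of 3. Over all 45141 probe sets 2627 passed without this array, beside 2699 with all 6 arrays. Without EpCAM+ plastic replicate 1 or 3, 576 and 920 of all probe sets passed. In the full epithelial group, replicate 2 was lowest for 6 of the 10 genes and replicate 3 highest for 6.

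**Figure D3:**
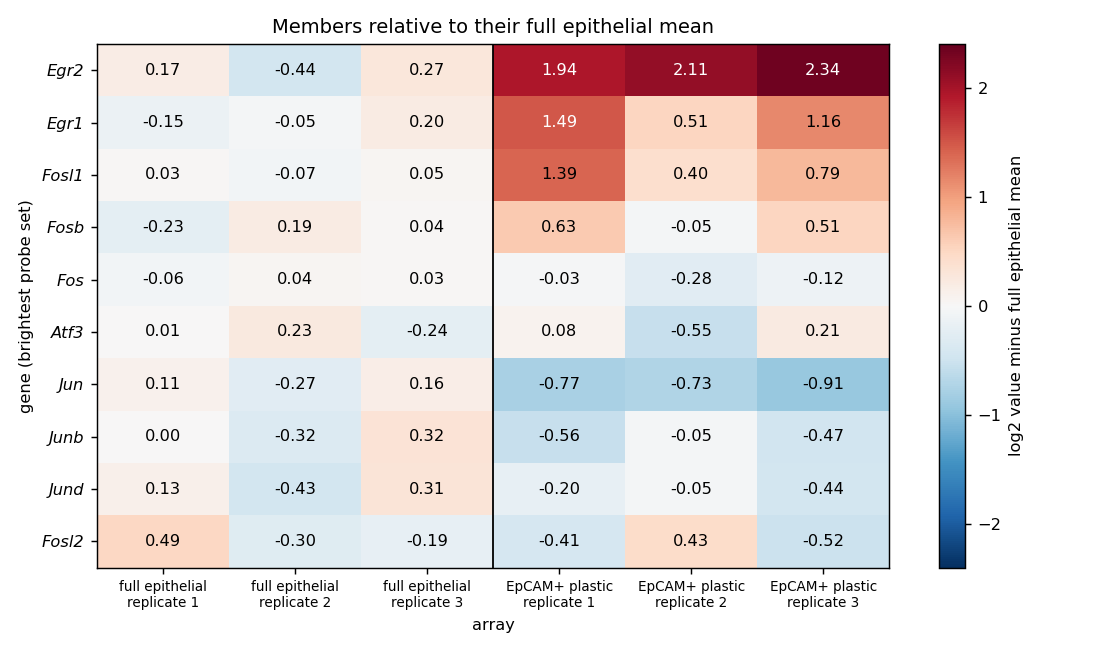
Log2 value of each member gene (rows, brighter probe set) in each array (columns) minus its mean over the 3 full epithelial arrays, printed in each cell and coloured from blue (lower) to red (higher). *Egr2* is high in all 3 EpCAM+ plastic arrays (1.94 to 2.34) and *Jun* low in all 3 (−0.91 to −0.73), while *Egr1* and *Fosl1* are lowest of their group in replicate 2.

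EpCAM+ plastic replicate 2 also differed in markers of other cells. The log2 of the summed signal of 14 fibroblast markers was 10.06 in it, beside 8.90 and 8.65 in EpCAM+ plastic replicates 1 and 3 and 8.98 to 9.49 in the full epithelial arrays. Of these markers 3 had a mean above the background bound, and none passed limma's test, with 1 higher and 1 lower where p was not adjusted. *Col1a1* was at 8.05 in this array, at 6.63 and 6.48 in the other EpCAM+ plastic arrays and at 6.85 to 7.76 in the full epithelial arrays. *Pdgfra*, *Col6a2* and *Mfap5* went the other way and were lowest of their group in EpCAM+ plastic replicate 2. The median of the 14 markers relative to their full epithelial means was 0.07 in it. It was −0.10 and −0.14 in EpCAM+ plastic replicates 1 and 3 and −0.14 to 0.12 in the full epithelial arrays. The part of fibroblast RNA in the spread of *Egr1*, *Fosl1* and *Fosl2* was not tested, and in bulk RNA fewer cells of a type and less RNA per cell cannot be told apart. The keratinocyte and sort markers *Epcam*, *Itga6*, *Krt5*, *Krt14*, *Trp63* and *Cdh1* were all above the bound, and 0 of 6 passed limma's test, with 1 higher and 0 lower before adjustment. Of 20 leukocyte markers 6 had a mean above the bound, and the log2 of the summed signal of the 20 was 11.31 to 12.15 in full epithelial and 10.86 to 11.46 in EpCAM+ plastic arrays. *S100a9*, *S100a8* and *Cd68*, with means of 10.02, 9.62 and 8.62, carried most of this sum, and tumor keratinocytes are known to make the first pair too. *Ptprc*, which encodes CD45, stayed at 2.90 to 3.00 in all arrays. None of 11 endothelial and pericyte markers and 1 of 8 melanocyte markers had a mean above the bound. No marker of these 3 lists passed limma's test, and before adjustment 3 leukocyte, 1 endothelial or pericyte and 0 melanocyte markers were lower and none higher. The difference of the 3' and 5' actin control probe sets, a sign of RNA integrity, was −0.72 to −0.59 in full epithelial and −0.63 to −0.45 in EpCAM+ plastic arrays, and its part was not tested.

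Since overnight digestion can itself induce these genes, a list of dissociation stress genes was read beside them. Of 34 listed genes 28 were measured, 7 of them members, and by limma 0 rose while *Jun*, *Dusp1* and *Btg2* fell (10.7%). All 28 had a mean above the bound, and 3.39% of all genes above it fell. Without adjustment of p, 4 were higher and 5 lower. With 1 array left out, 0 to 1 rose and 1 to 3 fell. The median log2 fold change was −0.10. In the 21 genes that are not members, the median relative to the full epithelial mean was −0.09, −0.06 and −0.10 in EpCAM+ plastic replicates 1, 2 and 3 and −0.09 to 0.04 in the full epithelial arrays. *Hspa8*, a constitutive heat shock chaperone, had a log2 fold change of −0.11 and *Ier2*, a small immediate early protein, one of −0.24. Both were named after their values were seen, and neither passed (adjusted p = 0.543 and 0.414). They are among 6 of the 28 with all EpCAM+ plastic values lower, while 4 had all higher. Over the 7798 genes above the bound 1019 were all lower and 2053 all higher. The 4 were *Egr1*, *Socs3* (0.74), *Dnaja1* (0.54) and *Gadd45g* (0.47), and none passed. The part of dissociation in the members' levels was not tested, as no undigested sample was analysed here.

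The other immediate early genes moved both ways. Of 44 listed genes 42 were measured, and 2 rose (4.76%), 4 fell (9.52%) and 36 did not pass, at a median of −0.07. Over all genes 5.3% rose and 1.91% fell. Of the 42, 35 had a mean above the bound, and among all genes above it 10.1% rose and 3.39% fell. The lowest log2 fold changes among those that fell belonged to *Tob1* and *Btg2*. *Tob1*, an antiproliferative factor, had −1.48 (SE 0.28, adjusted p = 0.0326). *Btg2*, a relative of it and a target of p53, had normalized log2 values of 10.15, 10.05 and 10.15 in full epithelial and 8.93, 8.64 and 8.56 in EpCAM+ plastic cancer cells. This was a log2 fold change of −1.41 with no overlap (SE 0.12, adjusted p = 0.00567). *Zfp36l1*, which promotes decay of AU-rich mRNAs, had −0.81 (adjusted p = 0.0114), and *Dusp1*, a phosphatase of MAP kinases, had −0.58 (adjusted p = 0.0383). *Gadd45a*, a stress and DNA damage gene, rose by 0.93 (adjusted p = 0.0479) and *Myc*, the growth-promoting factor, by 0.70 (adjusted p = 0.0462). Leaving out 1 array at a time, 0 to 1 genes of this list rose and 2 to 5 fell. After repeated quantile normalization 0 rose and 4 fell, and with the medians of the brighter probe sets set equal 0 rose and 5 fell. With the replicate number as a block 0 rose and 1 fell, while 2 rose with an intensity trend or a filter at the background bound. The 2 rises thus depend on the scaling and on the fit.

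The other bZIP genes of the AP-1 and ATF families include partners of Jun. Of 24 listed 22 were measured, and 3 rose (13.6%), 1 fell (4.55%) and 18 did not pass, at a median of 0.13. Over all genes 5.3% rose and 1.91% fell. Of the 22, 15 had a mean above the bound, and among all genes above it 10.1% rose and 3.39% fell. *Atf2*, which pairs with Jun, rose by 0.74 (SE 0.14, adjusted p = 0.0297), and its relative *Atf7* by 0.58 (adjusted p = 0.0314). Of the small Maf proteins, which lack an activation domain, *Mafg* rose by 0.55 (adjusted p = 0.0470), while *Maff*, itself an inducible gene, fell with a log2 value of −0.85 for the difference (SE 0.13, adjusted p = 0.0211). *Maff* had 10.61, 10.43 and 10.45 in full epithelial and 9.86, 9.68 and 9.41 in EpCAM+ plastic cancer cells, so that its groups did not overlap. With 1 array left out, 0 to 1 of these genes rose and 0 to 1 fell. None rose and 1 fell after repeated quantile normalization or with the medians of the brighter probe sets set equal. With the deposited scaling, 1 rose with an intensity trend, 0 with the replicate number as a block and 4 with a filter at the background bound. The 3 rises thus depend on the scaling and on the fit. Of the other Egr family genes and the Nab corepressors that bind Egr proteins, 0 of 5 passed limma's test, and before adjustment 0 were higher and 2 lower. Only 2 of the 5, *Egr3* and *Nab1*, had a mean above the background bound, so the others are hardly measured. *Egr3*, named after its value was seen, had 7.04, 7.05 and 7.14 in full epithelial and 6.85, 6.67 and 6.74 in EpCAM+ plastic cancer cells. All 3 EpCAM+ plastic values of *Egr3* were lower, at a log2 fold change of −0.32 (adjusted p = 0.0985), beside the rise of *Egr2*.

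Upstream of these factors, 26 of 36 listed genes of the SRF, ternary complex and MAP kinase machinery were measured, and 5 rose (19.2%), 0 fell and 21 did not pass, at a median of 0.23. Of the 26 measured genes 23 had a mean above the bound, and among all genes above it 10.1% rose and the median was 0.09. Before adjustment 9 had p under 0.05 and were higher and 2 were lower. *Map3k7*, which encodes the kinase TAK1, rose by 1.06 (SE 0.11, adjusted p = 0.00751), *Nras* by 0.82 (adjusted p = 0.0318) and *Mapk8*, which encodes the Jun kinase JNK1, by 0.71 (adjusted p = 0.0373). *Elk3*, a ternary complex factor, rose by 0.67 (adjusted p = 0.0430) and *Mrtfb*, a coactivator of SRF, by 0.53 (adjusted p = 0.0367). After repeated quantile normalization 3 of these genes rose, with the medians of the brighter probe sets set equal across arrays 1 did, and with an array left out 1 to 3 did.

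Of 44 listed AP-1 target genes 38 were measured, and 5 rose (13.2%), 1 fell (2.63%) and 32 did not pass, at a median of 0.07. Beside these shares of the 38, 5.3% of all genes rose and 1.91% fell. Of the 38, 29 had a mean above the bound, among them all that rose or fell. Among all genes above the bound 10.1% rose and 3.39% fell. The list was written with earlier results of these arrays known and is no independent reading of AP-1 activity. The 5 were the intermediate filament gene *Vim* with 2.26, the gelatinase *Mmp9* with 2.16, the protease inhibitor *Timp1* with 1.70, the cell cycle gene *Ccnd1* with 1.20 and the chromatin factor *Hmga2* with 1.01. *Mmp9* had normalized log2 values of 6.91, 7.28 and 7.66 in full epithelial and 8.75, 9.25 and 10.33 in EpCAM+ plastic cancer cells. The groups were apart for *Mmp9* (SE 0.40, adjusted p = 0.0319) and for *Ccnd1* (SE 0.13, adjusted p = 0.00865). *Tgm1*, the transglutaminase of the cornified envelope, had a log2 fold change of −1.18 (adjusted p = 0.0300). With an array left out, 2 to 7 of these genes rose and 0 to 1 fell.

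**Figure D4:**
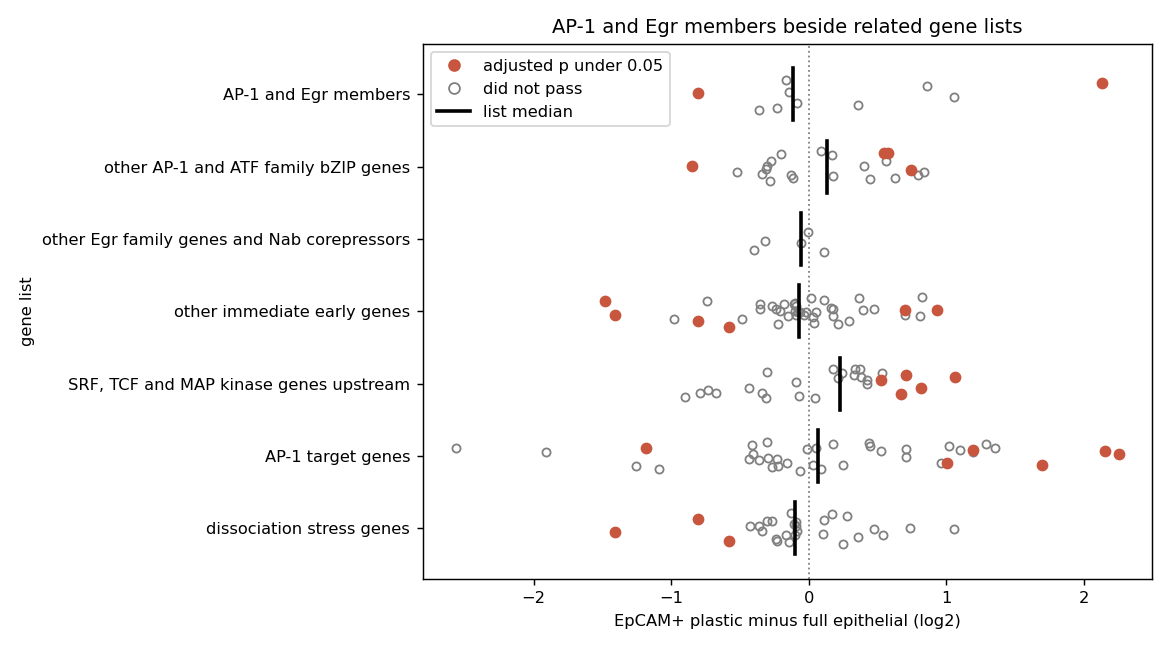
Log2 fold change (x axis, EpCAM+ plastic minus full epithelial) of each measured gene of 7 lists (y axis), 1 point per gene by its brightest probe set, with vertical offsets only for legibility. Red points passed at an adjusted p under 0.05 and black bars are list medians, from −0.11 for the members to 0.23 for the upstream genes. Lists share genes in places.

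The genes closest to *Egr2* and *Jun* were sought among 7788 other genes with a mean above the background bound, by the root mean square distance between profiles over the 6 arrays after each was centred on its mean. Nearest to *Egr2* were *Ssh1*, which encodes a cofilin phosphatase, the TGFβ receptor gene *Tgfbr1* and *Knop1*, at distances of 0.22, 0.26 and 0.26 on the log2 scale. Their log2 fold changes were 1.70, 1.86 and 1.82. Nearest to *Jun* were *Rap1gap*, which encodes an inactivator of the GTPase Rap1, *Zfp598* and *Shf*, at distances of 0.09, 0.10 and 0.10, and their log2 fold changes were −0.82, −0.78 and −0.86. These neighbours are a description of these arrays, since any gene with a group difference of like size comes close.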

How the data were processed

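RNA of 6 sorted cell samples was amplified by Pico profiling and hybridized to Affymetrix mouse genome arrays of the PM design. The authors deposited log2 values made with RMA. The sources used here name no version. The method corrects background, normalizes probes by quantiles and summarizes each probe set on the log2 scale, so differences are log2 fold changes. A second table with 6 value columns held the same numbers (largest difference 0) and was not used, as its column names match no label. Arrays give no read depth, and their number limits the precision.

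Groups came from the sample labels. Of 45141 probe sets, 28898 name 1 gene in the platform annotation, 551 name several and 15692 are unnamed here. For 28689 of the probe sets that name 1 gene, the gene identifier was found in a RefSeq table (GRCm38.p6) and the symbol was taken from it. All probe sets were fitted with limma (version 3.58.1, R 4.3.3; lmFit, eBayes, group only), with Benjamini-Hochberg adjustment. The fit was tested on simulated data.

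The members and lists were chosen with earlier results of these data known. Named genes were all members, up to 6 passing genes of each list by smallest p, and the 3 genes nearest to each member that passed. *Hspa8*, *Ier2*, *Socs3*, *Dnaja1*, *Gadd45g* and *Egr3*, outside this rule, were chosen after their values were seen. Cell type markers were named for the checks of the sort. Alternatives were a repeated quantile normalization, a filter at the background bound, an intensity trend, a replicate block, leaving out each array, averaging the probe sets of a gene and, added after seeing the data, equal medians of brighter probe sets.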

Additional observations from a re-analysis of the deposited data

How the results depend on the processing

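*Egr2* passed in all 12 alternatives of its log2 fold change, which ran from 1.91 to 2.27. *Jun* kept its direction in all 12 (−0.94 to −0.73) and passed in 7. *Egr1* was higher in all 12 (0.84 to 1.33) and passed in 3, and *Fosl1* was higher in all 12 (0.59 to 1.09) and passed in 1. These counts follow the brighter probe set or the mean of a gene's probe sets. The dimmer *Fosl1* probe set passed limma's test with the filter at the background bound, where the brighter had an adjusted p of 0.0519. With 1 array left out, the brighter *Fosl2* probe set ran from −0.46 to 0.081. It turned without full epithelial replicate 1 (0.081) or EpCAM+ plastic replicate 3 (0.014). *Atf3* ran from −0.23 to 0.14 and turned without full epithelial replicate 2 (0.030) or EpCAM+ plastic replicate 2 (0.14). None of these 4 values passed. The dimmer *Fosl2* probe set passed without EpCAM+ plastic replicate 2. The other genes kept their direction and did not pass in any alternative, but their values moved by over 1.5 times. The 12 alternatives ran from −0.27 to −0.073 for *Fos*, 0.23 to 0.57 for *Fosb*, −0.52 to −0.20 for *Junb* and −0.45 to −0.075 for *Jund*.

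Of the member probe sets, 6 passed with the filter at the background bound, instead of 3. Fewer probe sets are tested there, and 2653 of all 16424 passed. With the intensity trend 5 member probe sets passed, and 2538 of all 45141, beside 2699 in the main fit. With 1 array left out, 2 to 7 member probe sets passed, and 576 to 2627 of all probe sets. Member probe sets that also had a log2 difference of 1 or more numbered 4 with the filter, instead of 2. They numbered 2 to 6 with 1 array left out. Of the 10 genes, 1 to 4 passed with 1 array left out, instead of 2.

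With the replicate number as a block, 1 of the 10 genes passed, *Egr2*, and *Jun* had an adjusted p of 0.0878. Deviations of arrays with the same number from their group means correlated at −0.18, −0.37 and −0.0057 across probe sets. Those of arrays with unlike numbers correlated at −0.29 to 0.38. The labels name no pairing, and with 3 arrays per group these tied values cannot exclude one. The block lowered the calls over all probe sets from 2699 to 483. With full epithelial replicate 1, 2 or 3 left out, these calls were 1014, 1691 and 1486. With EpCAM+ plastic replicate 1, 2 or 3 left out, they were 576, 2627 and 920.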
